A study of Mus musculus with 8 samples.

Results

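The enzymes described here make, remodel and break down the sphingolipids of myelin: 4 sphingomyelinases (Smpd1, Smpd2, Smpd3 and Smpd4), 2 sphingomyelin synthases (Sgms1 and Sgms2), and 4 enzymes on the way to the galactolipids (Ugt8a, Gal3st1, Fa2h and Cers2). The 10 genes were listed by function, and 1 of them, Smpd3, was picked from its higher level in heterozygote-labelled libraries. All 10 were among the 15035 genes of the table, and all 10 passed the filter for low values (10 normalized counts or more in 4 or more libraries) that left 14870 genes for testing. Bulk RNA was sequenced from auditory nerves of mice at postnatal day 21, in 4 wild-type libraries (replicates 1 to 4) and 4 libraries labelled heterozygote for the transcription factor gene Mef2c (replicates 5 to 8), each from the pooled cochleas of 1 mouse. Both groups were of the same age and tissue. Strain, sex and the way the allele was made are not given in the sources used here.

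Sphingomyelin is a choline-bearing lipid of the outer membrane leaflet. Synthases make it by moving a phosphocholine head onto ceramide, and sphingomyelinases cut that head off again and release ceramide. Myelinating glia also add galactose to ceramide to give galactosylceramide, and sulfate to that to give sulfatide; both lipids are known for their abundance in myelin and for their part in the axon-glia junctions beside the node of Ranvier. In the auditory nerve, Schwann cells myelinate the peripheral part of the axons and oligodendrocytes the central part, and both cell types use these enzymes.

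The values were normalized counts, read counts divided by a scale factor for each library, with an estimated depth of 13363381 to 21507194 reads. Mef2c itself had 402 to 509 normalized counts in wild type and 583 to 735 in heterozygote-labelled libraries. Its log2 difference was 0.53, with an adjusted p (limma-trend) of 0.186. At face value this goes against the label, but a count over the whole gene does not show which allele it comes from. The way the allele was made is not given, so every direction given here is between libraries as labelled. Xist was at 12 and 7.6 normalized counts in wild-type library 1 and heterozygote-labelled library 5 and at 5175 to 8615 in the other 6. The nerve's own cells were present: the summed level of 10 neuron markers was 157816 to 221838 normalized counts in wild type and 179155 to 208552 in heterozygote-labelled libraries. For 10 Schwann cell markers it was 113593 to 146148 and 104899 to 146116.

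Per kilobase of the longest annotated transcript, the galactolipid enzymes and the lysosomal sphingomyelinase were the most abundant members. In wild type, Ugt8a stood at 1218 ± 114 normalized counts per kilobase, Cers2 at 1105 ± 69.8, Fa2h at 1021 ± 76.6 and Smpd1 at 1002 ± 100 (SD, n = 4 each). The ranges of neighbours among these 4 overlapped, so their order is not resolved. Gal3st1 followed at 630 ± 88.5, below all 4 libraries of Smpd1. Sgms1 was at 227 ± 30.7 normalized counts per kilobase, and its range lay apart from Gal3st1 above and Smpd3 below. Smpd3 (138 ± 19.3), Smpd2 (125 ± 29.2) and Smpd4 (99.0 ± 8.47) overlapped in sequence, and Sgms2 was the lowest at 60.7 ± 12.1 (SD, n = 4 each). In the heterozygote-labelled libraries, Cers2 headed the order at 1107 ± 123 normalized counts per kilobase and Ugt8a came next at 911 with a range of 845 to 964, and the ranges overlapped. Smpd3 reached 269 ± 45.4 and overlapped with Sgms1 at 243 ± 18.3, and Sgms2 reached 102 ± 17.5 and overlapped with Smpd4 at 102 ± 15.2 (SD, n = 4 each).

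**Figure D1:**
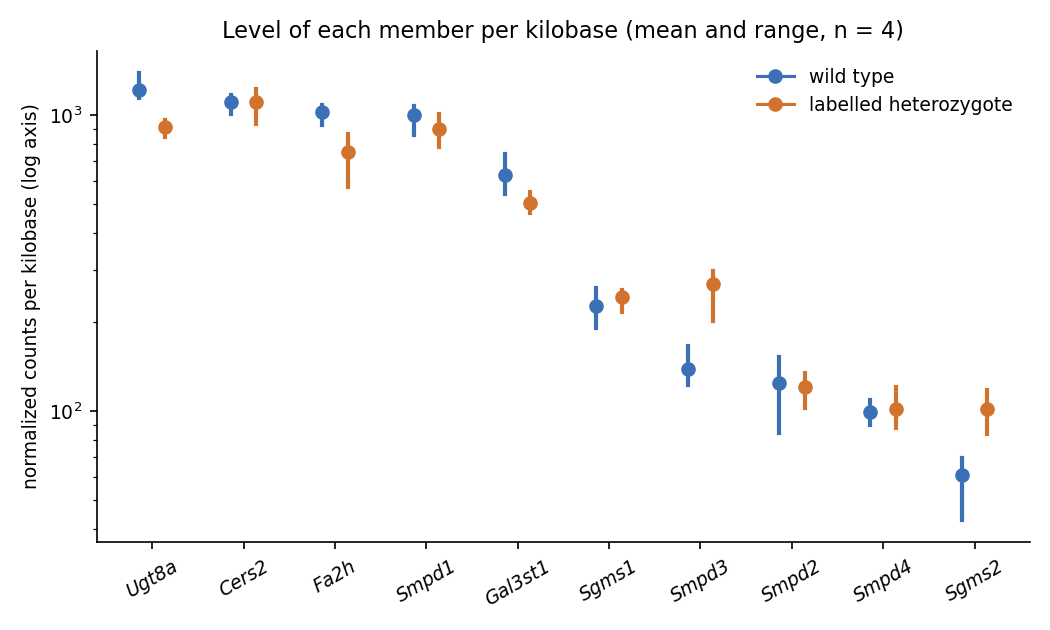
Normalized counts per kilobase of the longest annotated transcript for each member (log axis), with points for the group mean and bars for the range over 4 libraries. Ugt8a, Cers2, Fa2h and Smpd1 lie between 1002 and 1218 in wild type, and Sgms2 is the lowest at 60.7.

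To show regulatory sequence on both sides of the comparison, the bases just before the start site were read for Ugt8a and Gal3st1, the steps to sulfatide, which were both lower in heterozygote-labelled libraries at an unadjusted p under 0.05, and for Sgms2, which was higher. They come from RefSeq (GRCm38.p6), in which 8 of the 10 members were matched, all but Smpd3 and Fa2h. All run 5′ to 3′ on the gene's strand, and capitals mark GC boxes (GGGCGG), E-boxes (CANNTG) and SOX motifs (ACAAAG) found on either strand.
Ugt8a, chr3:125938653-125938902, minus strand: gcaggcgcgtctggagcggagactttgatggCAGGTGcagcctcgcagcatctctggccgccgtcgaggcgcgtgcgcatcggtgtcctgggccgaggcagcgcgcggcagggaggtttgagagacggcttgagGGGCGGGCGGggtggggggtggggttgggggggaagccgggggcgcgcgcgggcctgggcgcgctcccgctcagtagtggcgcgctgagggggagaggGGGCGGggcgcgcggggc
Gal3st1, chr11:3983386-3983635, plus strand: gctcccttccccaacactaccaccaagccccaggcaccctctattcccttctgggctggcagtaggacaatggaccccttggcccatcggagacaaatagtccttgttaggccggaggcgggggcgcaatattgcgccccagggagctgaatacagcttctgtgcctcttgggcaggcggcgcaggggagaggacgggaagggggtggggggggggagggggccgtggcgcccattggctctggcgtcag
Sgms2, chr3:131344909-131345158, minus strand: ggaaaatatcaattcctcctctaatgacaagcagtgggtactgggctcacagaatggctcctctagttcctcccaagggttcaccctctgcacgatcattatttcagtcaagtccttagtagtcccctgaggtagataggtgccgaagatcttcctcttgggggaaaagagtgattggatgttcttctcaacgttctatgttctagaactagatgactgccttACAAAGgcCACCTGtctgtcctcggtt

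The Ugt8a window was 76.8% G and C, the Gal3st1 window 65.6% and the Sgms2 window 47.2%, where the median of 32817 mouse windows of this length was 52.4%. Ugt8a held 3 GC boxes, of which 2 overlap, and 1 E-box. A GC box was present in 32.7% of all windows and an E-box in 66.2%. Sgms2 held 1 SOX motif, present in 16.5% of all windows, and 1 E-box. Gal3st1 held none of these. The MEF2 motif (2.92% of all windows), the cAMP response element TGACGTCA (1.55%) and the TATA box TATAAA (12.4%) were searched too and had no match in these 3 windows, which says only that these letters are not there. RefSeq lists 6 windows for Sgms2 and 3 for Gal3st1, and for each gene the 1 with the most annotated starts nearby was taken. The chosen window had 2 such starts for Sgms2 and 1 for Gal3st1, and that of Sgms2 lies inside the annotated span of the gene. The motif counts hold for the chosen windows only.

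Smpd3 encodes a neutral sphingomyelinase of the Golgi and plasma membrane that is known from the release of exosomes and from the mineralization of bone and cartilage. It lies on chromosome 8 (GRCm38, 106252548 to 106337988, minus strand). Its wild-type libraries had 855, 663, 702 and 630.5 normalized counts for replicates 1 to 4, and the heterozygote-labelled libraries had 1518, 1039, 1450.3 and 1534. Library 6 was the lowest of the labelled heterozygotes and still lay above wild-type library 1, the highest of its group. The mean was 1.94 times that of wild type, and the log2 difference was 0.95 ± 0.14 (SE). Since this difference is what Smpd3 was selected on, it is described without a test. Leaving out single libraries moved it between 0.89 (without wild-type library 4) and 1.08 (without heterozygote-labelled library 6). A correction for transcript length, 5148 bases for Smpd3, gave 0.84.

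For the other sphingomyelinases the groups overlapped. Smpd1, the acid sphingomyelinase of the lysosome whose loss causes Niemann-Pick disease, lies on chromosome 7 (105554360 to 105558389, plus strand). It had 2593, 2525, 2061 and 2487 normalized counts in wild type and 2096, 2438, 2256 and 1878 in heterozygote-labelled libraries. The groups overlapped widely, with a log2 difference of -0.16 (95% interval -0.39 to 0.08) and an adjusted p (limma-trend) of 0.513. Smpd2, a neutral sphingomyelinase on chromosome 10, ranged from 351 to 633 normalized counts in wild type and from 425 to 559 in heterozygote-labelled libraries. Its log2 difference was -0.03 (95% interval -0.43 to 0.37), with an adjusted p (limma-trend) of 0.952. Smpd4, a neutral sphingomyelinase of the endoplasmic reticulum and nuclear envelope on chromosome 16, ranged from 449 to 547 and from 440 to 605. Its log2 difference was 0.03 (95% interval -0.27 to 0.33), with an adjusted p (limma-trend) of 0.932.

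For each library, the makeup of the sphingomyelinase transcripts was then set out. Per kilobase, Smpd3 made up 11.2%, 9.24%, 11.5% and 8.79% of the 4 sphingomyelinases in the wild-type libraries. In the heterozygote-labelled libraries it made up 21.2%, 13.7%, 19.6% and 23.5%, again with library 6 the closest to wild type. The mean share was 10.2% ± 1.37 in wild type and 19.5% ± 4.18 in heterozygote-labelled libraries (SD, n = 4 each), a difference of 9.35 percentage points that follows from the choice of Smpd3 and was not tested. Smpd1 took the largest share in every library, 73.4% ± 1.36 and 64.5% ± 3.27 (SD, n = 4 each). The sizes of these shares depend on the division by length. Without it, the Smpd3 share was 17.2% ± 2.11 in wild type and 30.5% ± 5.78 in heterozygote-labelled libraries. The Smpd1 share was then 58.3% ± 1.87 and 47.4% ± 3.79 (all SD, n = 4 each), again the largest in every library. The summed level of all 4 was 1364 ± 127 normalized counts per kilobase in wild type and 1389 ± 88.2 in heterozygote-labelled libraries (SD, n = 4 each), a gap smaller than either spread.

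**Figure D2:**
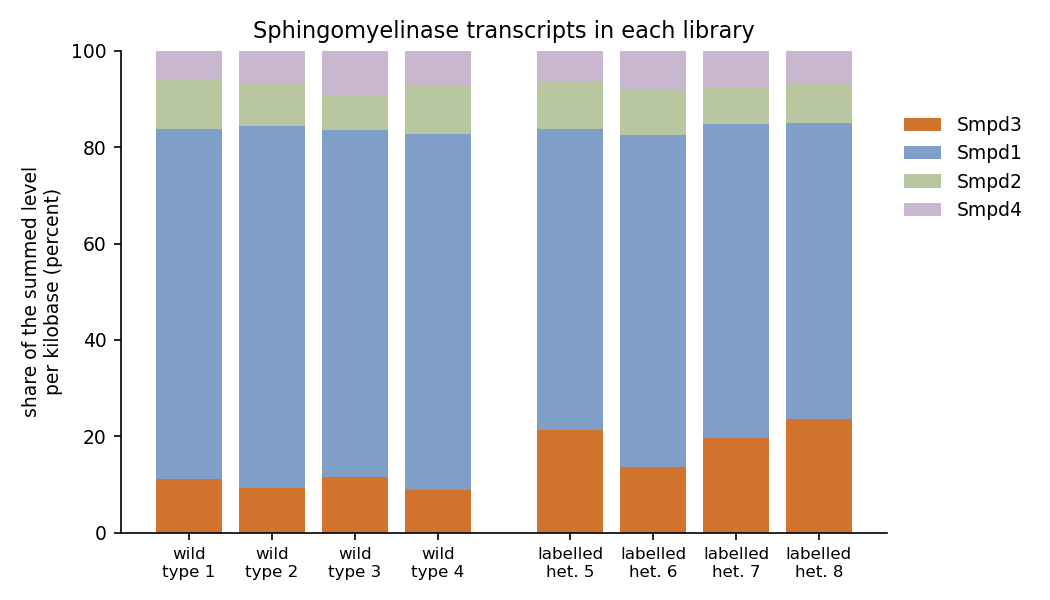
Share of each sphingomyelinase in the summed level per kilobase (percent), with 1 bar for each library. The Smpd3 share is 8.79% to 11.5% in wild type and 13.7% to 23.5% in heterozygote-labelled libraries, and Smpd1 has the largest share in all 8.

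Of the sphingomyelin synthases, the plasma membrane enzyme Sgms2 was higher in heterozygote-labelled libraries and the Golgi enzyme Sgms1 showed little difference. Sgms2, on chromosome 3 (131318985 to 131491411, minus strand), is known from inherited bone fragility in people. It had 404, 371, 386 and 249 normalized counts in wild type and 524, 484, 685 and 670.4 in heterozygote-labelled libraries. The groups did not overlap, wild-type library 4 was the lowest of all, and libraries 7 and 8 were the highest. The mean was 1.68 times that of wild type, with a log2 difference of 0.75 ± 0.18 (SE), an unadjusted limma-trend p of 0.00135 and an adjusted p of 0.194, which did not pass 0.05. Its log2 difference was 0.59 without wild-type library 4 and 0.62 after the correction for transcript length. Sgms1, on chromosome 19, ranged from 773 to 1055 normalized counts in wild type and from 871 to 1034 in heterozygote-labelled libraries. Its log2 difference was 0.10 (95% interval -0.15 to 0.36), with an adjusted p (limma-trend) of 0.695.

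The 2 synthases were also compared within libraries. The log2 ratio of Sgms1 to Sgms2 was 1.09, 1.39, 1.45 and 1.63 in wild type and 0.73, 1.05, 0.56 and 0.62 in heterozygote-labelled libraries. Every wild-type library lay above every library labelled heterozygote, with wild-type library 1 and library 6 the closest. The difference was -0.65, at p = 0.0286 in a two-sided exact permutation test, the smallest that 4 libraries against 4 allow. Over the 2 ratios tested here the Benjamini-Hochberg adjusted exact permutation p was 0.0571, which did not pass 0.05.

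Among the galactolipid enzymes, Ugt8a, Fa2h and Gal3st1 were lower in heterozygote-labelled libraries, at 0.748, 0.734 and 0.802 times the wild-type mean, and Cers2 was level. Ugt8a is the ceramide galactosyltransferase, which makes galactosylceramide, and lies on chromosome 3 (125865271 to 125938619, minus strand). It had 4288, 4444, 5218 and 4377 normalized counts in wild type and 3297, 3178, 3612 and 3625 in heterozygote-labelled libraries. The groups did not overlap, and wild-type library 3 was far above the other 3. The log2 difference was -0.42 ± 0.09 (SE), with an unadjusted limma-trend p of 0.000791 and an adjusted p of 0.162, which did not pass 0.05.

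Fa2h, the hydroxylase that supplies the hydroxy fatty acids of myelin galactolipids, lies on chromosome 8 (111345135 to 111393824, minus strand). Its wild-type libraries had 2477, 2305, 2689 and 2707 normalized counts, and the heterozygote-labelled libraries had 1901, 1419, 2156 and 1990. The groups did not overlap, and library 6 was the lowest of all. The log2 difference was -0.46 ± 0.13 (SE), with an unadjusted limma-trend p of 0.00334 and an adjusted p of 0.222. Without library 6 the log2 difference was -0.34.

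Gal3st1, the sulfotransferase that turns galactosylceramide into sulfatide, lies on chromosome 11 (3983636 to 3999326, plus strand). It had 1383, 1017, 1081 and 1251 normalized counts in wild type and 876, 975, 1034 and 909 in heterozygote-labelled libraries. Here the groups overlapped, since library 7 lay above wild-type library 2. The log2 difference was -0.31 ± 0.12 (SE), with an unadjusted limma-trend p of 0.0207 and an adjusted p of 0.296. Without the 2 libraries low in Xist the log2 difference was -0.20 and the unadjusted limma-trend p 0.115. The unadjusted p was also over 0.05 without wild-type libraries 1 or 4 and without libraries 5 or 8. The log2 ratio of Ugt8a to Gal3st1, which sets both steps of sulfatide synthesis against each other within a library, was 1.96 ± 0.29 in wild type and 1.85 ± 0.13 in heterozygote-labelled libraries (SD, n = 4 each). Its difference of -0.11 was within that spread, at p = 0.543 in a two-sided exact permutation test. The value depended on single libraries. Leaving out wild-type library 1 gave -0.21 (exact permutation p 0.171), and leaving out wild-type library 3 gave -0.0012 (exact permutation p 0.971). It was also nearer 0 without wild-type library 2 (-0.049) or library 6 (-0.055), and -0.23 with both libraries low in Xist removed (exact permutation p 0.2).

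Cers2, which makes the ceramides with very long acyl chains that myelin lipids carry, lies on chromosome 3 (95314791 to 95323599, plus strand). It had 2232, 2446, 2528 and 2585 normalized counts in wild type and 2076, 2709, 2458 and 2574 in heterozygote-labelled libraries. The groups overlapped almost wholly, with a log2 difference of 0.00 (95% interval -0.22 to 0.22) and an adjusted p (limma-trend) of 0.997.

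**Figure D3:**
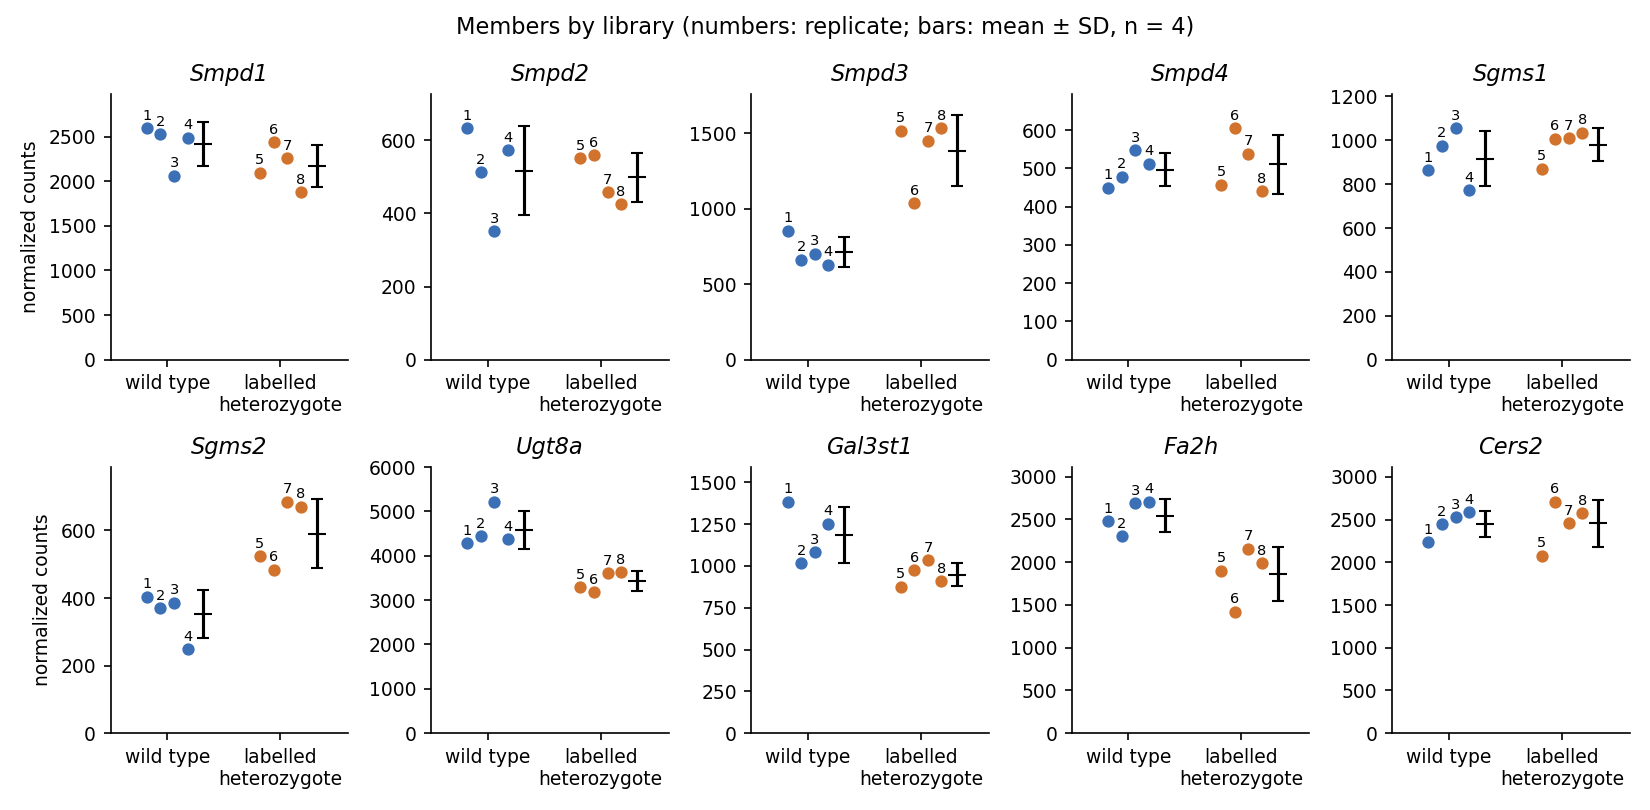
Normalized counts of each member in each library, with the replicate number beside each point and bars for the mean and SD of 4 libraries. Smpd3 and Sgms2 lie higher and Ugt8a and Fa2h lower in replicates 5 to 8 than in replicates 1 to 4, without overlap, and the other 6 members overlap.

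Counted over the list, 1 of the 10 members had a limma-trend adjusted p under 0.05, Smpd3 itself, against 0.0807% of all tested genes, and nothing is read from this count because Smpd3 was chosen by that contrast. It was 0 without wild-type libraries 2 or 4, without heterozygote-labelled libraries 5, 7 or 8, and without the 2 libraries low in Xist. None of the 9 other members passed, with limma-trend or with limma-voom. At an unadjusted limma-trend p under 0.05, 4 of those 9 were called (Sgms2 higher, and Ugt8a, Gal3st1 and Fa2h lower), where 14.1% of all tested genes were. The groups did not overlap in 3 of the 9, where this held for 7.26% of all tested genes. In the authors' deposited table the FDR was under 0.05 for 2 of the 9 other members, against 1.61% of all genes with a p-value, and also for Smpd3, which was chosen by this contrast. The 2 were Sgms2 with a ratio of 1.68 and an FDR of 0.014, and Ugt8a with a ratio of 0.748 and an FDR of 0.00721. Fa2h had an FDR of 0.0617 in the authors' deposited table. The median log2 difference was -0.02 over the 10 members and 0.02 over all tested genes.

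**Figure D4:**
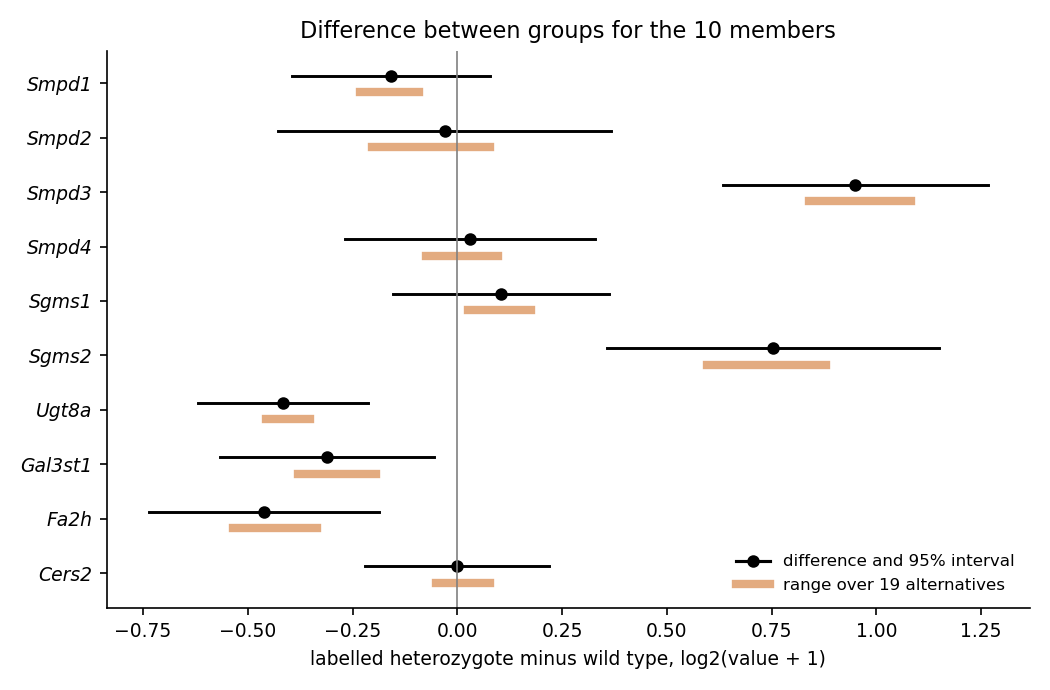
Log2 difference of each member, labelled heterozygote minus wild type on the log2(value + 1) scale, with its 95% interval (black) and the range over 19 alternative settings (orange). Smpd3 (0.95) and Sgms2 (0.75) lie above 0 and Ugt8a (-0.42), Gal3st1 (-0.31) and Fa2h (-0.46) below 0 in all settings. The 95% intervals of Smpd1, Smpd2, Smpd4, Sgms1 and Cers2 cross 0, and so do the ranges over settings of Smpd2, Smpd4 and Cers2.

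The lower galactolipid enzymes were next set beside markers of both myelinating glia. Of 15 oligodendrocyte markers, 13 were lower at an unadjusted limma-trend p under 0.05, where 7.34% of all tested genes were lower at that p, and 5 passed the adjusted threshold. Their median log2 difference was -0.94, and their summed level was 225218 to 293943 normalized counts in wild type and 120096 to 155175 in heterozygote-labelled libraries. Only Opalin was near the limit of 3 reads, with 3.6 to 27.3 normalized counts. Of 10 Schwann cell markers, 0 had an unadjusted limma-trend p under 0.05, and their median log2 difference was -0.08. Mag, Mbp, Cnp and Mal of the first list are also made by Schwann cells. Ugt8a (-0.42) and Fa2h (-0.46) had log2 differences between those of Mog (-1.41), a protein of central myelin, and Prx (-0.16), a Schwann cell protein of the myelin sheath, and near that of Cnp (-0.42), a myelin enzyme made by both glia. In bulk tissue, fewer cells of a type and less RNA per cell cannot be told apart, and the part of the oligodendrocyte markers in these enzymes' levels was not tested.

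Across single libraries, the 15 oligodendrocyte markers did not all follow 1 order. Ugt8a and Fa2h were lowest of all 8 in library 6, at 3178 and 1419 normalized counts, as were 3 of the 15 markers: Cnp (11851), Mal (6778) and Aspa (281). Another 11 were lowest in library 5, among them Mog (443) and Mobp (2746), where Ugt8a was at 3297 and Fa2h at 1901. Wild-type library 3 had the most Ugt8a (5218) and the most Mal (10339) of its group, and 9 of the 15 markers were at their wild-type lowest there, among them Mog (1393) and Mobp (11853).

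Smpd3 and Sgms2 were set beside markers of skeletal cells. Of 12 osteoblast and osteocyte markers, 6 were higher in heterozygote-labelled libraries at an unadjusted limma-trend p under 0.05, where 6.72% of all tested genes were. The other 6 had log2 differences above 0, as 7771 of the 14870 tested genes had, down to 0.06 for Runx2. The median log2 difference of the list was 0.54, and the summed levels overlapped, at 16250.5 to 39808 and 28471 to 49328 normalized counts. Of 6 chondrocyte markers listed 4 were in the table, and 3 of these were higher at an unadjusted limma-trend p under 0.05, with summed levels of 5850 to 8820 and 9140 to 11855 that did not overlap. None of the genes of either list passed the adjusted threshold. Library 6 had the least Smpd3 of its group, and 3 of the 4 chondrocyte markers were lowest there too, among them Acan, the cartilage proteoglycan aggrecan, at 2355 normalized counts against 2741 to 3954 in the other 3. Wild-type library 4 and library 7, the lowest and highest for Sgms2, were also the lowest of all 8 for 10 and the highest for 9 of the 12 osteoblast and osteocyte markers, among them Col1a1, a bone collagen chain, at 2181 and 11749 normalized counts, and the bone sialoprotein gene Ibsp at 354 and 2744. Wild-type library 1, the highest of its group for Smpd3 (855) and Sgms2 (404), was also the highest of its group for 10 of these 12, and its Col1a1 level of 8423 lay above those of libraries 5, 6 and 8. Other libraries did not match in this way. Library 5 was the lowest of the labelled heterozygotes for 8 of the 12, with Smpd3 at 1518 normalized counts. Library 8, the highest of all 8 for Smpd3 (1534), was the highest of the labelled heterozygotes for 1 of the 12. No marker of either list was under 3 reads in any library, and their part in the levels of Smpd3 and Sgms2 was not tested. Of 7 neutrophil markers listed 4 were in the table. At an unadjusted limma-trend p under 0.05, 3 of these 4 were higher, where 6.72% of all tested genes were, and 0 passed the adjusted threshold. These 3 were S100a8, S100a9 and Ngp, with log2 differences of 4.09, 3.62 and 3.73 and no overlap between groups. S100a8 had 9.5 to 53.2 normalized counts in wild type and 88 to 1145 in heterozygote-labelled libraries. The summed levels overlapped, at 106 to 2346 and 649 to 6030, with Ltf at 2176 in wild-type library 1. Of 8 astrocyte markers, 3 were lower at an unadjusted limma-trend p under 0.05, where 7.34% of all tested genes were, and 0 were higher. These were Gfap (log2 difference -0.99), Aqp4 (-0.73) and Aldoc (-0.42), and 0 passed the adjusted threshold. The median log2 difference of the 8 was -0.45, with 2 above 0, and their summed levels overlapped, at 44153 to 65687 and 36940 to 59814 normalized counts. Of 8 macrophage markers, 0 were called at that unadjusted p.

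**Figure D5:**
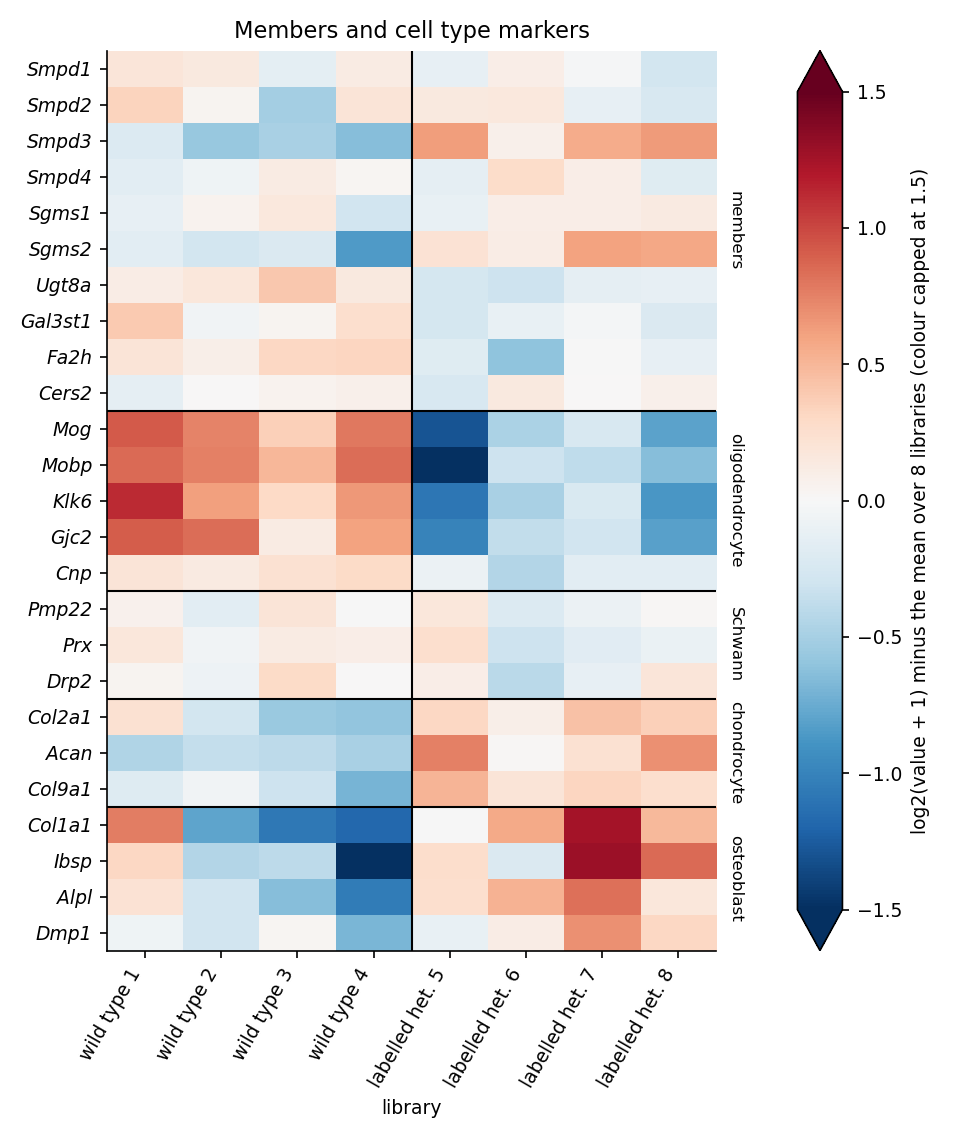
Log2(value + 1) of members and cell type markers (rows) in each library (columns), as the difference from the gene's mean over 8 libraries, with colour capped at 1.5 in either direction. Oligodendrocyte genes such as Mog (443 to 924 against 1393 to 2058 normalized counts) differ between groups, Schwann cell genes overlap, and Col1a1 is high in wild-type library 1 as well as library 7.

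The genes most like Smpd3 and Fa2h across the 8 libraries were ranked by Pearson correlation of log2 values among 13355 genes with a mean of at least 50 normalized counts. For Smpd3 they were Prpf38b (r = 0.97), Bhlhe40 (0.97), Fzd9 (0.97), Lgr4 (0.96) and Nfix (0.96). Their Spearman rho ran from 0.90 to 0.98. Without libraries 5 and 8, the farthest from the Smpd3 median, r was 0.93 to 0.96. Sgms2 ranked 29th in this order, with r of 0.91, and Ugt8a had r of -0.79. For Fa2h the most alike were Cnp (r = 0.95), Dctn4 (0.95), Snx16 (0.94), Dnajc4 (0.93) and E130311K13Rik (0.93), with Spearman rho of 0.86 to 0.98. Without wild-type library 4 and library 6, r was 0.80 to 0.91. Ugt8a ranked 36th with r of 0.88, Gal3st1 659th with 0.64, and Cers2 had r of -0.15. These correlations describe 8 libraries that differ by group, were taken as the highest of many, and carry no test.

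The other genes of the pathway were then counted. Of 51 other sphingolipid genes in the table, 0 passed an adjusted p (limma-trend) of 0.05, and at an unadjusted p under 0.05 there were 2 higher and 5 lower, against 6.72% and 7.34% of all tested genes. Their median log2 difference was -0.02. The unadjusted count of 7 rested on single libraries: it was 3 without wild-type library 1, 13 without wild-type library 3, 4 without wild-type library 4 and 3 without library 8. It was also 4 after the correction for transcript length.

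In ceramide synthesis, 3 of 15 genes were lower at that p and 1 higher. Sptssa, the small subunit of serine palmitoyltransferase, the first enzyme of the pathway, had 2748 ± 425 normalized counts in wild type and 1945 ± 86.8 in heterozygote-labelled libraries (SD, n = 4 each), without overlap and with a log2 difference of -0.49 (limma-trend adjusted p 0.186). Sptlc3, another subunit, had a log2 difference of -0.50 (limma-trend adjusted p 0.354), and Ormdl1, a regulator of that enzyme, -0.42 (limma-trend adjusted p 0.343). Cers6, the ceramide synthase for shorter acyl chains, was at 241 ± 46.9 and 334 ± 25.0 normalized counts (SD, n = 4 each), without overlap. Its log2 difference was 0.49 (limma-trend adjusted p 0.278). In ceramide transfer and breakdown, 1 of 11 genes was called, the neutral ceramidase Asah2 with a log2 difference of 0.45 (limma-trend adjusted p 0.319). Of 6 genes for the breakdown and transfer of galactolipids 1 was lower, the glycolipid transfer protein gene Gltp. It was at 1288 ± 107 and 1020 ± 114 normalized counts (SD, n = 4 each), without overlap. Its log2 difference was -0.34 (limma-trend adjusted p 0.266). Galc and Arsa, the lysosomal enzymes that degrade galactosylceramide and sulfatide, had log2 differences of -0.07 and -0.09, with adjusted p (limma-trend) of 0.782 and 0.738. The median log2 difference of 15 genes for glucosylceramide and gangliosides was 0.03. Of 4 further sphingomyelin genes, among them the synthase relative Samd8 (log2 difference 0.08), 0 were called. The groups did not overlap in 2 of the 15 ceramide synthesis genes, 1 of the 6 galactolipid genes and 0 genes of the other lists. This held for 7.26% of all tested genes, so nothing is read from the lack of overlap.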

How the data were processed

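Poly(A) RNA of auditory nerves was sequenced with 1 library per mouse, both cochleas of a mouse being pooled, per the labels' protocols. The authors deposited 1 table with a signal value per gene and library, judged from its values to be read counts divided by a size factor. STAR, Partek, DESeq2 and mm10 are named in the submitters' processing notes without roles; the annotation and use of strand are not given in the sources used here. The authors deposited also a p-value, an FDR, a ratio and its log2 value per gene, per the file headers. Estimated reads were taken from the step between values, 3 reads being 2.37 to 3.89 normalized counts.

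Genes reaching 10 normalized counts in 4 or more libraries were fitted as log2(value + 1), a scale that understates changes of low genes, with limma-trend (R 4.3.3, limma 3.58.1) on all 8 libraries without covariates, two-sided, with Benjamini-Hochberg adjustment over all tested genes. The step share of 85.3% to 92.5% whole reads (within 0.06 of a read) was too low to treat the values as recovered counts, so estimated reads entered only the limma-voom alternative. No replicate numbers are shared between groups. On simulated data of 14870 genes for this comparison, 70% of genes changed 2-fold and 94% of those changed 4-fold were recovered, with 8 unchanged genes called. The simulated noise was drawn separately for each gene, and the changed genes had a mean of at least 50 normalized counts. These shares therefore do not cover lower genes or variation that genes share within a library. Ratios used exact permutation. Lengths and positions came from GENCODE M21 (GRCm38, the assembly of mm10). Promoter windows were those whose start lay within 50 bases of the most GENCODE starts, with the first listed taken on a tie. Alternatives were other pseudocounts, filters and scalings, limma-voom, low Xist and the first residual component as covariates, a length correction, and libraries left out. Named genes were all members, pathway genes under an unadjusted p of 0.05 (up to 3 per list and direction), up to 4 defining markers per cell type list, and the 5 genes most like Smpd3 and Fa2h; other genes and markers given beside them (Galc, Arsa, Samd8 and further glial or skeletal markers) were picked with their values in view. A few genes of the lists are counted in them but not reported here by name. The members and lists were chosen with earlier results of these data known. Tables and figures were made with pandas 2.3.3, numpy 2.4.6 and matplotlib 3.10.9 under Python 3.11.15.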

Additional observations from a re-analysis of the deposited data

Results flagged for a closer look

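A single library lay far from the rest of its group in 3 of 26 groups of 4 examined, where about 1 in 20 is expected by chance. Smpd3 stood out in heterozygote-labelled libraries because library 6 was low, at 1039 normalized counts against 1450.3 to 1534, with a gap of 0.831 of the group's range. Sgms1 stood out in the same group because library 5 was low, at 871 normalized counts against 1007 to 1034, with a gap of 0.834 of the range. Ugt8a stood out in wild type because library 3 was high, at 5218 normalized counts against 4288 to 4444, with a gap of 0.832 of the range. Without that library the log2 difference of Ugt8a was -0.35.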

How the results depend on the processing

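Smpd1, Smpd3, Sgms1, Sgms2, Ugt8a, Gal3st1 and Fa2h kept their direction in all 19 alternatives. The other filters and the covariates leave a log2 difference unchanged by construction, so only the remaining alternatives could change a direction. Those that changed sign lay near 0. Smpd2 (-0.03) was 0.026 without the 2 libraries low in Xist and between -0.20 and 0.078 with single libraries left out. Smpd4 (0.03) was -0.074 with the length correction and -0.055 to 0.098 with single libraries left out. Cers2 (0.00) was 0.033 without the libraries low in Xist, 0.061 with the length correction and -0.051 to 0.077 with single libraries left out. The count of members past an adjusted p of 0.05, 1 in the report, was 0 with upper-quartile scaling, quantile normalization, the length correction or the libraries low in Xist removed, and 3 (Smpd3, Sgms2 and Ugt8a) with the leading residual component added as a covariate. It was 0 to 1 with single libraries left out. That component was taken from the residuals of these same data, so a higher count with it is not separate support. The causes were not tested. At an unadjusted p the count of 5 ran from 4 to 6 over all alternatives. The pathway count of 7 was 3 without the libraries low in Xist, 4 with the length correction and 3 to 13 with single libraries left out. The log2 ratio of Sgms1 to Sgms2 was -0.75 without the libraries low in Xist, with an exact permutation p of 0.1, the smallest that 3 against 3 allow, and -0.75 to -0.57 with single libraries left out, at an exact permutation p of 0.0286 or 0.0571. Over all genes, the 12 called at an adjusted p of 0.05 became 0 without wild-type libraries 2 or 4 or library 8, 7 without library 5, 6 without library 7, 7 with quantile normalization, 221 without wild-type library 3, 27 with the length correction and 576 with that component as a covariate. Genes near 3 reads, such as Opalin, cannot be compared at this depth.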
